A study of Mus musculus with 36 samples.

Results

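Gluconeogenesis and glycogen genes were followed in regenerating mouse liver. The group held the 9 genes Pck1, G6pc, Fbp1, Pklr, Gys2, Pygl, Ppp1r3b, Ppp1r3c and Ppp1r3g, taken from the count tables by symbol, out of 21955 symbols listed. All 9 passed the filter on low counts and were among the 13436 genes tested. RNA came from frozen livers of C57BL/6JN mice, an inbred laboratory strain, and the study compared young animals (4 months) with old animals (18 months) to ask how regeneration differs with age. Livers were taken at time points labelled before, 48, 72, 96, 120 and 240, with 3 biological replicates per group (12 groups, 36 libraries), and a group is named here by its age and label. The labels state neither the unit of the time points nor how regeneration was induced, and they state no hour of collection or feeding state. All libraries were made from total RNA depleted of ribosomal RNA. ERCC spike-in RNA was added as mix 1 to young and mix 2 to old samples.

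The liver stores glucose as glycogen after a meal and releases it between meals, first from glycogen and then by making new glucose. Gluconeogenesis runs from phosphoenolpyruvate carboxykinase (Pck1) through fructose bisphosphatase (Fbp1) to glucose-6-phosphatase (G6pc), while liver pyruvate kinase (Pklr) catalyses the last step of glycolysis, the opposite route. Glycogen is built by liver glycogen synthase (Gys2) and broken down by liver glycogen phosphorylase (Pygl). The products of Ppp1r3b, Ppp1r3c and Ppp1r3g bring protein phosphatase 1 to glycogen, where it activates the synthase and inactivates the phosphorylase.

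Total counts per library ranged from 2328233 to 6034446 (median 4439170). Levels are given in CPM, the usual depth-scaled count, here with totals scaled by the TMM method, and 3 counts corresponded to 0.49 to 1.29 CPM. Each group held 1 library with Y-linked transcripts, in which Uty, Kdm5d, Eif2s3y and Ddx3y summed to 177 to 321 CPM, against at most 0.212 CPM in the remaining 24 libraries. Spread between replicates was widest in old mice at 48, with a biological coefficient of variation of 40.6% against 19.4% to 27.2% elsewhere. Hepatocyte markers were abundant throughout: albumin (Alb), the main plasma protein made by hepatocytes, lay between 4057 and 10940 CPM in all libraries. It was not level, and in old mice stood at 10940, 8144 and 8593 CPM before and at 4768, 4057 and 9078 CPM at 48. In such bulk samples, fewer cells of a type and less RNA per cell cannot be told apart.

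On GRCm38 with the GENCODE M21 annotation, the gluconeogenic genes lie at chr2:173153048-173159273 (Pck1, plus strand), chr11:101367561-101377903 (G6pc, plus) and chr13:62864753-62888282 (Fbp1, minus). The glycogen enzymes lie at chr6:142422613-142473109 (Gys2, minus) and chr12:70190811-70231488 (Pygl, minus). The subunit genes lie at chr8:35375739-35388139 (Ppp1r3b, plus), chr19:36731731-36736653 (Ppp1r3c, minus) and chr13:35958839-35970388 (Ppp1r3g, plus). Values are counts over whole genes, and Pygl, Ppp1r3b and Ppp1r3g each overlap a gene on the opposite strand, of which the one at Pygl, F730035M05Rik, reached at most 1.87 CPM.

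A gene was called where its adjusted p was under 0.05 in edgeR's quasi-likelihood test, adjusted over all genes by the Benjamini-Hochberg method. Fold changes are log2 values from that fit, with their standard errors (SE). Comparisons with the libraries before share those libraries within an age. Against before, every call among the 9 genes was toward lower levels. At 48, 6 of the 9 genes were called in young mice, where 21.9% of all genes tested were called, and 4 of 9 in old mice, where 24.1% were. At 72, 5 of 9 were called in young mice (17.4% of all genes) and 5 of 9 in old mice (12.4%). At 96, the counts were 3 of 9 in young mice (1.4% of all genes) and 4 of 9 in old mice (6.82%). At 120, 3 of 9 were called in young mice (0.581% of all genes) and 3 of 9 in old mice (3.87%). At 240, Ppp1r3g was the 1 gene of 9 called in each age, where 0.246% of all genes were called in young and 0.156% in old mice. The median log2 change of the 9 genes at 48 was -0.95 in young and -1.37 in old mice, while the median over all genes tested was -0.01 and 0.01. The old median was the value of Ppp1r3b, which was not called. Taken gene by gene, the old change minus the young change at 48 had a median of 0.55 over the 9 genes, so the old falls were not deeper in general.

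**Figure D1:**
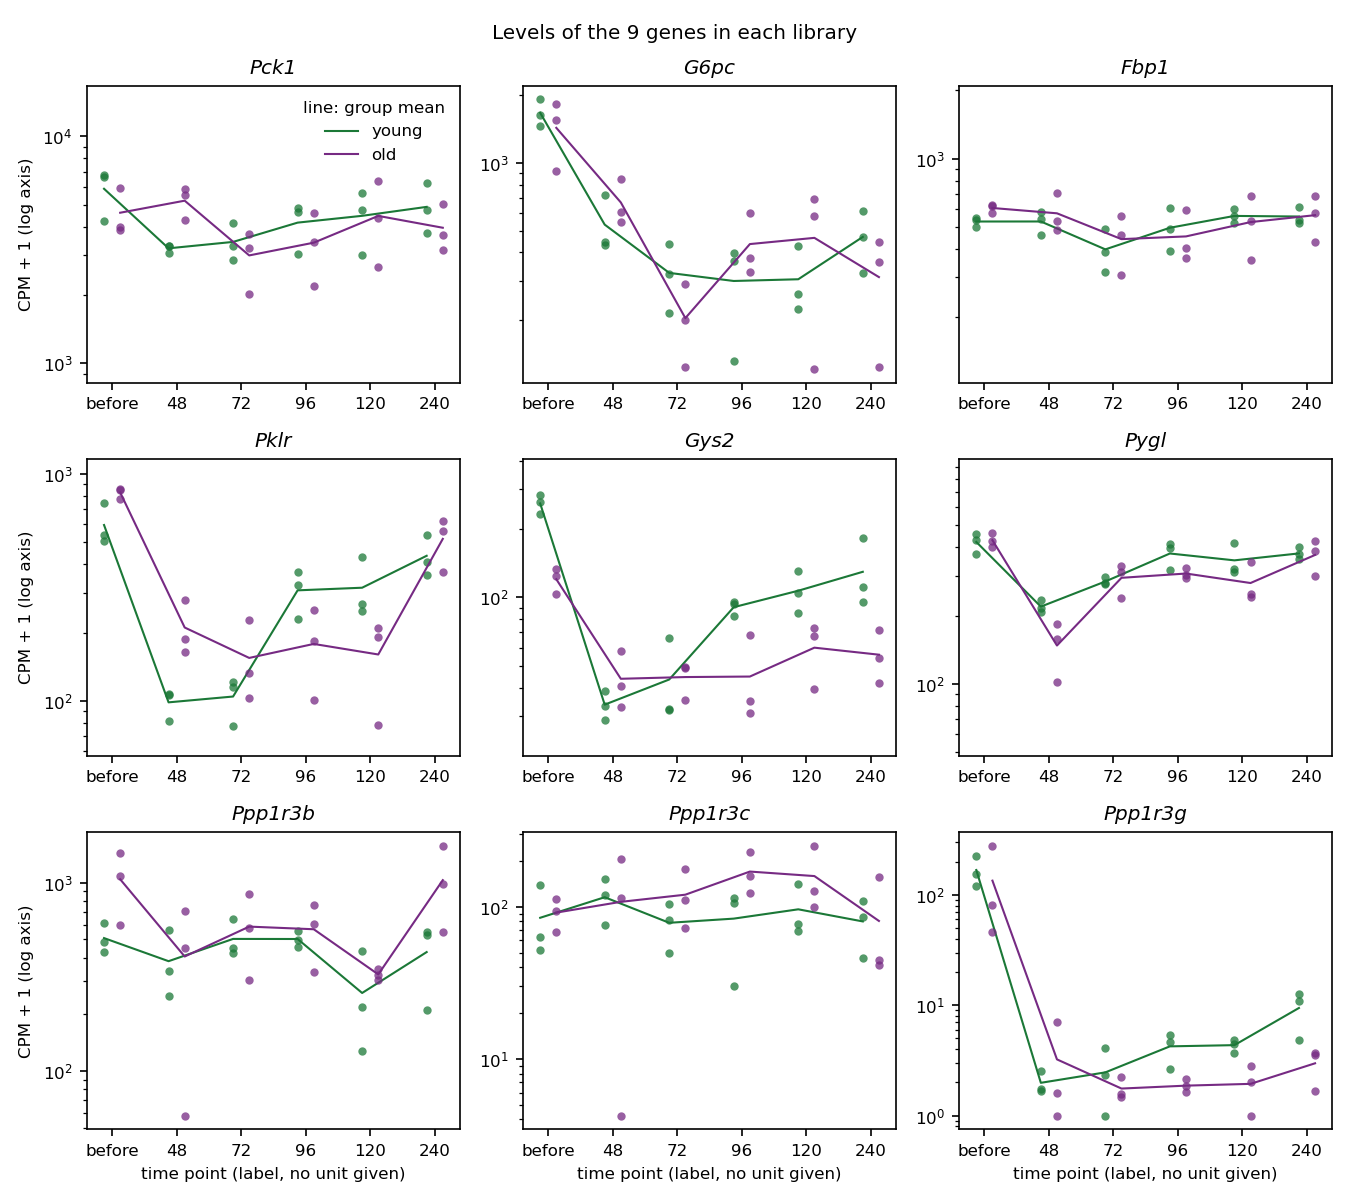
Levels of the 9 genes, 1 panel each, as CPM + 1 on a log axis against the time point label, with each point a library and lines through the group means (n = 3) of young (green) and old (purple) mice. Every later library held less Ppp1r3g and less G6pc than every library before, while Fbp1 stayed between 306 and 702 CPM in all 36 libraries.

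**Figure D2:**
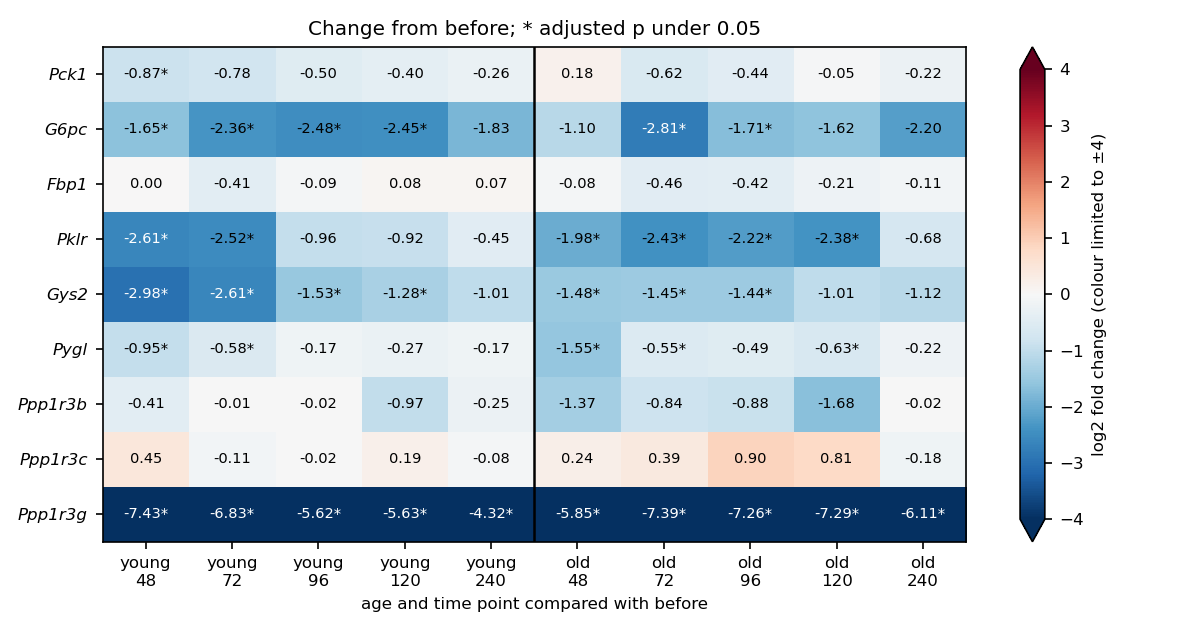
Log2 fold change of each gene (rows) at each later time point against before (columns, young left and old right of the line), with colour limited to ±4 and an asterisk for an adjusted p under 0.05. Ppp1r3g was called in all 10 columns, and no cell above 0 carries an asterisk.

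Among the gluconeogenic enzymes, G6pc fell and Fbp1 was called in no comparison. G6pc encodes the enzyme that frees glucose for release into the blood, the shared last step of gluconeogenesis and glycogen breakdown. It stood at 1903, 1459 and 1622 CPM in the young libraries before and at 1818, 913 and 1544 CPM in the old ones. At 48 it stood at 433, 442 and 716 CPM in young mice and at 601, 848 and 547 CPM in the old. The 6 libraries before (913 to 1903 CPM) did not overlap with the 30 later ones (121 to 848 CPM). In young mice the log2 change from before was -1.65 ± 0.51 (SE) at 48 (adjusted p = 0.0203), -2.36 ± 0.52 at 72 (adjusted p = 0.00293), -2.48 ± 0.52 at 96 (adjusted p = 0.0132) and -2.45 ± 0.52 at 120 (adjusted p = 0.0217). These called changes left 18.0% to 31.9% of the level before. In old mice G6pc changed by -2.81 ± 0.53 at 72 (adjusted p = 0.00115) and -1.71 ± 0.51 at 96 (adjusted p = 0.0412). Old mice at other labels showed no call: the values of -1.1 ± 0.50 at 48 and -1.62 ± 0.51 at 120 did not pass (adjusted p = 0.110 and 0.0669). At 240 the mean was still 468 ± 143 CPM (SD, n = 3) in young and 310 ± 167 CPM in old mice, and the differences from before of -1.83 ± 0.51 and -2.20 ± 0.52 were not called (adjusted p = 0.255 and 0.0898), although the libraries did not overlap. DESeq2 called both (adjusted p = 0.0368 and 0.0032), as it did the old value at 120 (0.0206). At 240 the young value was also called in a fit of only these 2 groups (0.00843), and the old value without old 120 replicate 3 (0.0288).

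Several G6pc calls rested on single libraries. The call at 48 in young mice was lost without young before replicate 1 (adjusted p = 0.0604), young 48 replicate 1 (0.0883) or young 48 replicate 2 (0.0683), and that at 96 without young 96 replicate 3 (0.0783). The young call at 120 was lost on leaving out any of the 3 young libraries before, young 120 replicate 1 or young 120 replicate 3 (adjusted p up to 0.129). The old call at 96 was lost on leaving out any of 8 libraries, among them all 3 old libraries before and old 96 replicates 1 and 2 (adjusted p up to 0.169). The calls at 72 were kept in both ages whichever of the 36 libraries was left out.

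Pck1 encodes the enzyme that commits oxaloacetate to glucose. Its promoter is shown because Pck1 was the only one of the members with a promoter in the table that held a cAMP response element, the motif through which glucagon signalling is known to act on it. The 225 bases upstream of the annotated exons read as follows, 5′ to 3′, from RefSeq on GRCm38.p6, chr2:173152823-173153047, plus strand, with the match in capitals.
Pck1: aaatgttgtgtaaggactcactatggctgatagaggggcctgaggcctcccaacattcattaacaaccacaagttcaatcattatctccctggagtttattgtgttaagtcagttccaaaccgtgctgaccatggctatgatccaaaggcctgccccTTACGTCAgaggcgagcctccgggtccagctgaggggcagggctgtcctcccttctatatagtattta
The match to TGACGTNA, on the minus strand, spans positions -93 to -86 from the start of transcription. Of 32851 promoters in the RefSeq table, 2.52% held this motif in the 250 bases before the start.

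Pck1 stood at 6625, 6747 and 4250 CPM in young mice before and at 3287, 3295 and 3053 CPM at 48, without overlap. The change was -0.87 ± 0.31 (adjusted p = 0.0455), but the call was lost on leaving out any of 16 of the 36 libraries, including all 3 of young 48 and young before replicates 1 and 2, with adjusted p up to 0.141. In old mice Pck1 stood at 3877, 4000 and 5944 CPM before and at 5495, 5862 and 4261 CPM at 48, a difference of 0.18 ± 0.31 (adjusted p = 0.714). At 48 every old library therefore held more Pck1 than every young library, yet the difference between the ages of 0.70 ± 0.31 was not called (adjusted p = 0.158). The old change minus the young change at 48 was 1.05 ± 0.44 (adjusted p = 0.225). From 72 on, the group means lay between 2988 and 4889 CPM and no comparison was called, although at 72 the libraries of each age lay below all of those before.

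Fbp1, the enzyme of the middle step of the route, had the narrowest relative range of the 9 genes. It ran from 306 to 702 CPM over all 36 libraries. Its group means were 528 ± 25.1 CPM in young mice and 605 ± 27.5 CPM in the old before, and 528 ± 63.2 and 574 ± 113 CPM at 48. The lowest means were at 72, with 398 ± 88.1 CPM in young mice and 441 ± 127 CPM in the old, and the differences from before of -0.41 ± 0.23 and -0.46 ± 0.23 were not called (adjusted p = 0.236 and 0.203). In both ages, though, the libraries at 72 lay below all of those before. The old libraries before lay above all young ones before, a difference of 0.20 ± 0.23 that was not called (adjusted p = 0.954).

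Pklr, the glycolytic enzyme of the group, fell in both ages, and at 96 and 120 its group mean was nearer to the level before in young than in old mice. It stood at 740, 539 and 504 CPM in young mice before and at 105, 107 and 80.8 CPM at 48, a change of -2.61 ± 0.36 (adjusted p = 7.09e-06), or 6.09-fold. In old mice it stood at 853, 777 and 853 CPM before and at 278, 164 and 187 CPM at 48, a change of -1.98 ± 0.35 (adjusted p = 0.00022), or 3.95-fold. At 72 the changes were -2.52 ± 0.36 in young mice (adjusted p = 9.11e-05) and -2.43 ± 0.35 in the old (adjusted p = 9.74e-05). At 96 the young libraries held 323, 368 and 228 CPM and were not called against before (-0.96 ± 0.34, adjusted p = 0.160; 0.0271 in a fit of only these 2 groups), while the old libraries held 99.6, 183 and 250 CPM, a change of -2.22 ± 0.35 (adjusted p = 0.000569). At 120 the young libraries held 429, 267 and 248 CPM (-0.92 ± 0.34, adjusted p = 0.251) and the old ones 210, 77.4 and 191 CPM, a change of -2.38 ± 0.35 (adjusted p = 0.000317). The young libraries at 96 and 120 still lay below all young ones before, with means at 51.5% and 52.9% of that level, against 21.4% and 19.2% in old mice. By 240 the means were 435 ± 90.7 CPM in young mice and 516 ± 130 CPM in the old, or 73.2% and 62.4% of the level before. Neither was called, and the old libraries did not overlap with those before.

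The order of the ages in Pklr turned over the course. Old mice held more at 48, by 1.1 ± 0.34 (adjusted p = 0.0337, 3 of 3 old libraries above all young ones), and less at 120, by -0.98 ± 0.34 (adjusted p = 0.323, also without overlap), which was not called. The joint test of age by time over the 5 later time points called Pklr (adjusted p = 0.0374). It was the 1 member called there, where 2.76% of all genes were called. No single time point carried a call: the old change minus the young change was 0.63 ± 0.48 at 48, -1.26 ± 0.48 at 96 (adjusted p = 0.406) and -1.46 ± 0.48 at 120 (adjusted p = 0.585). Both calls were close to the threshold. The joint call was lost in 21 of 45 alternative fits, with adjusted p from 0.00203 with DESeq2 to 0.253 without the 12 libraries with Y-linked transcripts, and among those 21 were the fits without any 1 of the 3 young libraries at 48 (0.0567 to 0.0983). The difference at 48 was not called without any 1 of the young 48 libraries (adjusted p = 0.0669 to 0.134), without old 48 replicate 1 (0.139) or without old 48 replicate 2 (0.0514).

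Pklr lies on GRCm38 chr3:89136142-89146784, plus strand. Hcn3, a gene for an ion channel, overlaps it on the opposite strand, and its level had the highest correlation with Pklr of the genes compared (Pearson r = 0.955 over the 36 libraries, a description). Hcn3 averaged 37.2 CPM. The strand setting of the counting is not given in the sources used here, so reads of the 2 genes cannot be told apart where they overlap. The next most like gene was Pdk1 (r = 0.913), a kinase that inhibits pyruvate dehydrogenase. The liver promoter of Pklr is shown because it holds the carbohydrate response element, the known glucose-responsive motif of this gene. It reads as follows, on the plus strand, chr3:89136373-89136571, upstream of the start at 89136623, with the match in capitals.
Pklr: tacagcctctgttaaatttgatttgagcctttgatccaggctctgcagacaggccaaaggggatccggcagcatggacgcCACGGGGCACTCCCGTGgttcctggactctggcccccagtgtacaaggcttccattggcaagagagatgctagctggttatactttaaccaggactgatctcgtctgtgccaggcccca
The motif was searched as CACGNG and CNCGTG with 5 bases between them, on both strands, and the match spans positions -170 to -154. Of the 32851 promoters, 13 (0.0396%) held it. The other annotated start of Pklr, at 89136142, had no match.

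Gys2, which encodes the enzyme that builds glycogen, fell in both ages and was the member called between the ages on average. In young mice it stood at 263, 231 and 280 CPM before and at 37.8, 32.3 and 27.8 CPM at 48, a change of -2.98 ± 0.33 (adjusted p = 9.86e-07), or 7.87-fold. In old mice it stood at 133, 123 and 102 CPM before and at 56.9, 31.8 and 39.5 CPM at 48, a change of -1.48 ± 0.31 (adjusted p = 0.00121), or 2.79-fold. The groups at 48 overlapped, while before the old libraries lay below all young ones, a difference that was not called (-1.12 ± 0.30, adjusted p = 0.240). The old change minus the young change of 1.5 ± 0.43 at 48 was not called (adjusted p = 0.071), nor was the joint test of age by time (adjusted p = 0.077). The joint test was not called in 42 of 45 alternative fits (adjusted p from 0.0117 to 0.214), the exceptions being DESeq2 (0.0117) and the fits without young 72 replicate 3 (0.0145) or old 96 replicate 3 (0.0177). The difference of the changes at 48 was called with DESeq2 (0.0268) and without old 48 replicate 3 (0.0406), old 96 replicate 3 (0.0484) or young 72 replicate 3 (0.0451).

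Young Gys2 then climbed by its group means, to 42.4 ± 19.7 CPM at 72, 89.4 ± 6.64 at 96, 106 ± 23.1 at 120 and 128 ± 46.6 at 240. Old Gys2 lay at 43.5 ± 7.89, 43.7 ± 20.4, 59.0 ± 18.2 and 54.8 ± 14.9 CPM at the same labels. Against before, Gys2 was called in young mice at 72 (-2.61 ± 0.32), 96 (-1.53 ± 0.31) and 120 (-1.28 ± 0.30, adjusted p = 0.0431), and in old mice at 72 (-1.45 ± 0.31) and 96 (-1.44 ± 0.31). The young call at 120 was lost on leaving out any of 12 libraries, among them all 3 of young before and all 3 of young 120 (adjusted p up to 0.205). The young call at 96 was lost without young 96 replicate 2 (0.0508), and the old call at 96 without old 96 replicate 1 (0.0509) or 2 (0.0544). In old mice at 120 (-1.01 ± 0.31, adjusted p = 0.0576) Gys2 was called with DESeq2 (0.0291), with Y-linked transcripts as a covariate (0.0409) and without old 48 replicate 2 (0.0484), old 96 replicate 3 (0.0386), young 240 replicate 1 (0.0488) or young 72 replicate 3 (0.0408).

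Old mice held less Gys2 than young mice at before, 96, 120 and 240, each without overlap between the libraries, and overlapped with young mice at 48 and 72. The single differences were -1.12 ± 0.30 before, -1.03 ± 0.31 at 96, -0.84 ± 0.31 at 120 and -1.23 ± 0.31 at 240, and none was called (adjusted p = 0.240, 0.124, 0.349 and 0.345). The difference before was called in a fit of only these 2 groups (adjusted p = 0.0246), and that at 96 without old 96 replicate 3 (-1.48, adjusted p = 0.0341). Averaged over the 6 time points, Gys2 was lower in old mice by -0.63 ± 0.13 (adjusted p = 0.00243). This was the 1 of 9 members called on average, where 5.98% of all genes were called, and it was called in all 45 alternative fits, with differences from -0.71 to -0.51.

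Pygl, which encodes the enzyme that breaks glycogen down, dipped at 48 and lay near its starting level by 240. In young mice it stood at 431, 374 and 458 CPM before and at 232, 215 and 207 CPM at 48, a change of -0.95 ± 0.18 (adjusted p = 0.000298). In old mice it stood at 461, 401 and 423 CPM before and at 157, 101 and 183 CPM at 48, a change of -1.55 ± 0.19 (adjusted p = 2.59e-06). The old libraries at 48 lay below all young ones, by -0.57 ± 0.18 (adjusted p = 0.0381). The old change minus the young change was -0.60 ± 0.26 and was not called (adjusted p = 0.234). Without old 48 replicate 2, the lowest library, the age difference was -0.37 (adjusted p = 0.264), and it was not called on leaving out any of 6 other libraries either, all 3 of young 48 among them (adjusted p up to 0.124).

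The later Pygl calls were small. They were -0.58 ± 0.18 in young mice at 72 (adjusted p = 0.0263), -0.55 ± 0.18 in old mice at 72 (adjusted p = 0.0437) and -0.63 ± 0.18 in old mice at 120 (adjusted p = 0.0455). Leaving out single libraries ended the young call in 4 of 36 fits (without young before replicate 1 or 3, or young 72 replicate 1 or 2, adjusted p up to 0.107), the old call at 72 in 20 (up to 0.191) and the old call at 120 in 26 (up to 0.189). At 240 Pygl stood at 375 ± 23.7 CPM in young mice and 369 ± 65.8 CPM in the old.

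Ppp1r3g showed the largest change of the group. Its product is a glycogen-targeting subunit of protein phosphatase 1. In young mice it stood at 225, 155 and 120 CPM before and at 0.654, 1.55 and 0.739 CPM at 48, a total of 13 counts in 3 libraries. The old libraries held 44.6, 79.3 and 276 CPM before and at 0, 6.08 and 0.614 CPM at 48. The log2 change at 48 was -7.43 ± 0.87 in the young group (adjusted p = 2.07e-06) and -5.85 ± 0.77 in the old (adjusted p = 1.65e-05), or 173-fold and 57.8-fold lower. The 6 libraries before (44.6 to 276 CPM) lay above all 30 later ones (0 to 11.6 CPM).

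Ppp1r3g did not regain its level by 240. It then stood at 11.6, 3.87 and 9.90 CPM in young mice and at 0.660, 2.72 and 2.55 CPM in the old. The change from before was -4.32 ± 0.69 in the young group (adjusted p = 0.00199) and -6.11 ± 0.81 in the old (adjusted p = 0.000695, 68.9-fold lower), which left 5.0% and 1.45% of the level before. The libraries of the ages did not overlap at 96, 120 and 240, with old mice lower by -1.96 ± 1.13, -1.99 ± 1.14 and -2.11 ± 0.87, and none of these differences was called (adjusted p = 0.487, 0.598 and 0.940). Averaged over time points the difference was -1.0 ± 0.44 (adjusted p = 0.189), and without old 48 replicate 2 it was -1.45 (adjusted p = 0.0465). The size of the old falls depended on single libraries: without old before replicate 3, the change at 48 was -4.73 and that at 240 was -5.0, and without old 48 replicate 2 the change at 48 was -8.56. The old changes at 72, 96 and 120, which were -7.39, -7.26 and -7.29, became -6.26, -6.13 and -6.16 without old before replicate 3. The change at 120 was -8.3 without old 120 replicate 2 and -6.52 without old 120 replicate 3, and the young change at 72 of -6.83 was -7.75 without young 72 replicate 3. Each of these stayed called. The young call at 240 was lost without young 240 replicate 2 (adjusted p = 0.0535). In fits of only the 2 groups compared, the old falls at 48, 120 and 240 kept their size and were not called (adjusted p = 0.0627, 0.0833 and 0.309).

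The promoters of Ppp1r3g and Ppp1r3c are set side by side because these subunits of 1 family parted in the data. Both windows lie outside annotated exons. That of Ppp1r3g, chr13:35967656-35967852 on the plus strand, precedes the RefSeq start at 35967906. It lies inside the annotated gene (chr13:35958839-35970388), not upstream of all its exons. That of Ppp1r3c, chr19:36736654-36736854 on the minus strand, lies upstream of the annotated gene. An E-box (CACGTG, the motif bound by clock and glucose-sensing factors) is in capitals.
Ppp1r3g: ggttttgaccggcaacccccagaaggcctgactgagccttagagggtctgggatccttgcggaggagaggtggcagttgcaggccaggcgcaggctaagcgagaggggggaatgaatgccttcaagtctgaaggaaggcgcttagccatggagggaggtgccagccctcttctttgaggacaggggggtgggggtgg
Ppp1r3c: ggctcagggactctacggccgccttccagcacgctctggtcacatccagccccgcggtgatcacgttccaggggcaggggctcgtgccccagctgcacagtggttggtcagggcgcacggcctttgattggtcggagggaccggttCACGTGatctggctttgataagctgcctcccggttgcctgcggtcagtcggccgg
The E-box of Ppp1r3c spans positions -104 to -99, and 6.02% of the 32851 promoters held one. Both strands were searched in 8 starts of 7 members, and no member held the forkhead motif TGTTTAC (3.17% of promoters), the D-box TTATGNAA (3.07%) or the HNF4 motif CAAAGTCCA (0.384%). A match describes letters in this window and says nothing of binding.

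Ppp1r3b, which encodes the main hepatic glycogen-targeting subunit, was called in no comparison and spread widely between libraries. It stood at 428, 612 and 483 CPM in young mice before and at 593, 1090 and 1447 CPM in old mice, a difference of 1.04 ± 0.58 (adjusted p = 0.784). At 240 the values were 210, 524 and 548 CPM in young mice and 1569, 546 and 981 CPM in the old (1.27 ± 0.58, adjusted p = 0.978). The largest difference from before was -1.68 ± 0.59 in old mice at 120 (adjusted p = 0.103), which was called in a fit of only these 2 groups (0.0348) and without old 48 replicate 2 (0.0325). The old value at 48, -1.37 ± 0.58, was called without old 48 replicate 3 (-2.04, adjusted p = 0.025). Ppp1r3c, the subunit also called protein targeting to glycogen, was likewise never called. Its group means ran from 77.4 ± 27.3 CPM in young mice at 72 to 169 ± 52.7 CPM in old mice at 96. In old 48 replicate 2 both genes were far below the other libraries of the group: Ppp1r3b stood at 56.9 CPM against 451 and 707, and Ppp1r3c at 3.24 CPM against 113 and 203.

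Per kilobase of annotated exon, with all GENCODE M21 exons of a gene joined, the level of Ppp1r3g in young mice before was 61.9 ± 20 CPM per kb. That of Ppp1r3b was 81.6 ± 15.2 and that of Ppp1r3c 30.7 ± 17.1 CPM per kb, so neighbours in this order differed by about their spread. At 48 the same levels were 0.364 ± 0.184 for Ppp1r3g, 61.5 ± 25.5 for Ppp1r3b and 42.0 ± 13.9 for Ppp1r3c. Among the enzymes in young mice before, Pck1 had the highest level per length, with 1710 ± 411 CPM per kb, followed by G6pc with 688 ± 93.2, Fbp1 with 310 ± 14.8, Pklr with 184 ± 39.4, Gys2 with 97.0 ± 9.42 and Pygl with 61.0 ± 6.20 CPM per kb. In old mice before, the first 4 kept this order, while Gys2, at 44.8 ± 5.94 CPM per kb, lay below Pygl at 62.1 ± 4.41. The order of genes depends on the lengths used, which were 6.89 kb for Pygl and 2.66 kb for Gys2. The annotation used in the counting is not given, so these lengths may differ from those that were counted.

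**Figure D3:**
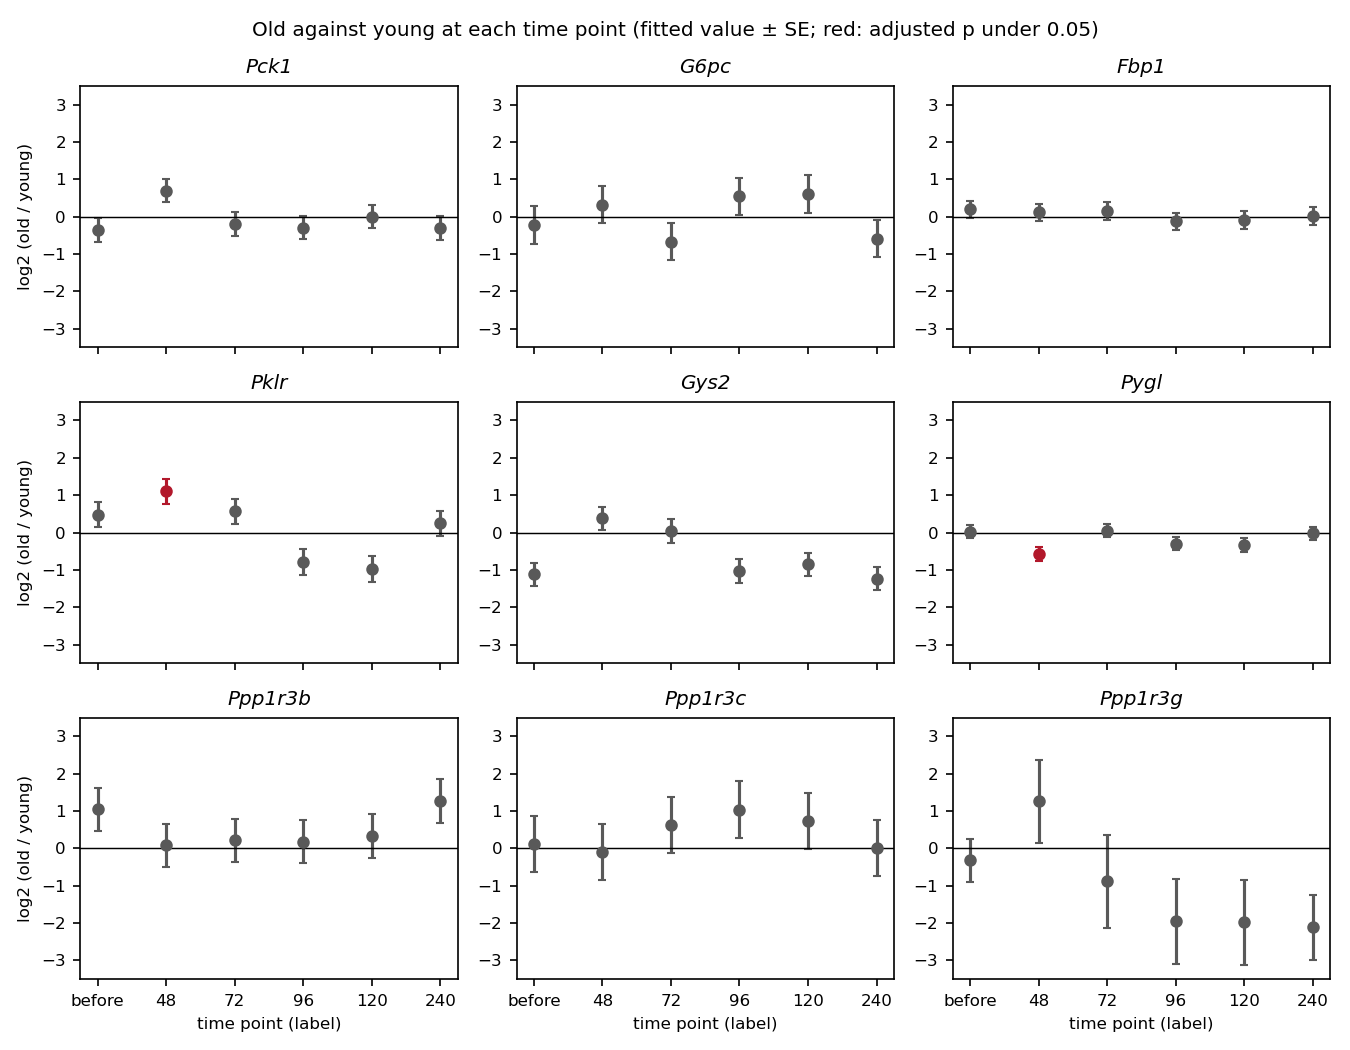
Fitted log2 difference of old from young mice (points, with SE bars) at each time point label, 1 panel per gene, with red for an adjusted p under 0.05. The 2 red points are Pklr and Pygl at 48, and Gys2 lies between -1.23 and -0.84 at before, 96, 120 and 240.

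Between the ages at single time points, calls were few. At 48, 2 of 9 members were called, Pklr higher and Pygl lower in old mice, where 11.2% of all genes were called. Neither was called without the 12 libraries with Y-linked transcripts, a fit of 2 libraries a group (adjusted p = 0.239 and 0.0837). No member was called before (0.0595% of all genes called, 928 at an unadjusted p under 0.05), at 96 (0.171%, 1778 unadjusted) or at 240 (0.0149%, 661 unadjusted). At 72 and 120 no gene at all was called (0% each), while 653 and 1321 genes had an unadjusted p under 0.05. For the old change minus the young change, no member was called at any time point, where 1.38% of all genes were called at 48, 0% at 72, 0.0149% at 96, 0.00744% at 120 and 0% at 240. The genes with an unadjusted p under 0.05 in these 5 comparisons numbered 2141, 611, 1237, 926 and 179.

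A list of 102 further tested genes of the pathway was set beside the members. Against before, 3 rose and 29 fell in young mice at 48 (31.4% of the list, against 21.9% of all genes), and 9 rose and 25 fell in old mice at 48 (33.3% against 24.1%). At 72 the counts were 4 and 25 in young mice (28.4% against 17.4%) and 3 and 17 in old mice (19.6% against 12.4%). By 240 they were 0 and 2 in each age (1.96% against 0.246% in young and 0.156% in old mice). Among the 36 regulators tested, 0 rose and 13 fell in young mice at 48, and 1 rose and 12 fell in old mice, 36.1% of the list each time. The median log2 change at 48 over the 102 genes was -0.32 in young and -0.12 in old mice, against -0.01 and 0.01 over all genes.

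Named members of these lists moved strongly. In young mice at 48, Ldha, which makes lactate from pyruvate, rose by 1.63 ± 0.28, and Pck2, the mitochondrial counterpart of Pck1, rose by 1.53 ± 0.39 from 5.32 ± 1.23 to 15.5 ± 2.72 CPM. Pdp1, a phosphatase that activates pyruvate dehydrogenase, rose by 1.2 ± 0.28 in young mice and by 1.63 ± 0.29 in old mice. Fbp2, the muscle counterpart of Fbp1, changed by -5.25 ± 0.95 in young mice from 8.93 ± 4.46 CPM. Nr4a1, an immediate early nuclear receptor, changed by -4.52 ± 0.65 and the coactivator Ppargc1b by -2.51 ± 0.30. In old mice at 48, Srebf1, the regulator of fat synthesis, changed by -3.24 ± 0.33, Nr4a1 by -2.78 ± 0.59 and the aldolase Aldoc by -2.29 ± 0.44. Pdk4, a kinase that inhibits pyruvate dehydrogenase, rose by 3.82 ± 0.97 in old mice at 48 and the pseudokinase Trib3 by 3.12 ± 0.71, each with an SD above its mean (698 ± 1071 and 46.8 ± 56.2 CPM). At 72 the largest calls in young mice were Pck2 (1.80 ± 0.39), the brain glycogen phosphorylase Pygb (1.12 ± 0.29) and Ldha (1.02 ± 0.27) upward, and Fbp2 (-4.22 ± 0.86), Nr4a1 (-3.91 ± 0.62) and Txnip (-2.76 ± 0.46), an inhibitor of glucose uptake, downward. Those in old mice at 72 were Pck2 (1.57 ± 0.38), Pdp1 (1.17 ± 0.30) and Ldha (0.98 ± 0.27) upward, and Nr4a1 (-3.34 ± 0.62), Pdk1 (-2.32 ± 0.32) and Srebf1 (-2.11 ± 0.31) downward. At 240 the calls were Fbp2 and Nr4a1 in young mice and Igfbp1 and Nr4a1 in old mice, all lower than before.

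Between the ages at 48, 11 of the 102 genes were higher and 2 lower in old mice, 12.7% of the list against 11.2% of all genes. The 3 with the largest differences upward were Pdk4 (3.77 ± 0.97), Fbp2 (3.74 ± 1.02, from 0.163 to 3.12 CPM) and Trib3 (3.53 ± 0.73), and the 2 that were lower were Srebf1 (-1.48 ± 0.31) and Mdh1 (-0.91 ± 0.23), a malate dehydrogenase. The old change minus the young change at 48 was called for 4 of the 102 genes (3.92% against 1.38% of all genes), Trib3 (4.98 ± 1.02), Fbp2 (4.89 ± 1.22), Pfkfb2 (1.55 ± 0.41) and Srebf1 (-1.67 ± 0.43). Averaged over time points, 8 were called (7.84% against 5.98% of all genes), of which 5 were higher, led by Ppp1r3a (2.77 ± 0.53), the muscle glycogen-targeting subunit, Pdk4 (1.5 ± 0.39) and Pfkfb4 (0.71 ± 0.17). The level of Ppp1r3a was low and uneven, with 0.219 ± 0.209 CPM in young mice before and 8.65 ± 13.9 CPM in young mice at 120 (SD). The 3 that were lower were Srebf1 (-0.68 ± 0.12), the receptor adaptor Grb10 (-0.62 ± 0.12) and Ppargc1b (-0.49 ± 0.12).

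**Figure D4:**
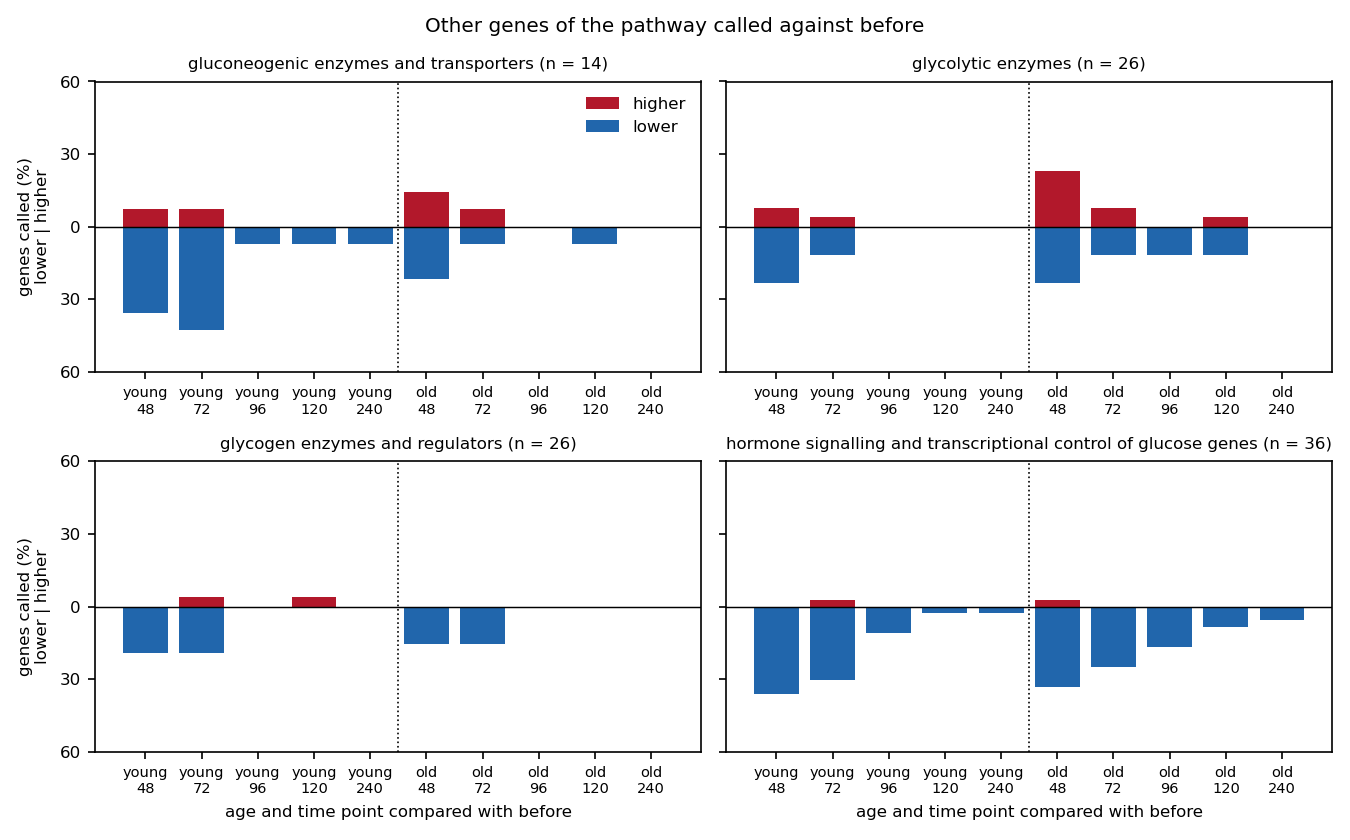
Percent of the tested genes of 4 pathway lists (n in each title) called higher (red, upward) or lower (blue, downward) at each later time point against before, young left and old right of the dotted line. Lower calls were most frequent at 48 and 72, and at 240 the calls were 2 in each age over all lists.

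Other marker groups moved over the same time points, and their part in the members' changes was not tested. Of 10 clock genes, 1 rose (Arntl) and 8 fell in young mice at 48, and 2 rose (Arntl and Npas2) and 6 fell in old mice. Their summed level was 1087 to 1306 CPM in young mice and 844 to 1342 CPM in old mice before, and 385 to 413 and 344 to 529 CPM at 48. At 240 none of the 10 was called and the sums were 1213 to 1332 CPM in young and 767 to 1422 CPM in the old. Among genes that follow fasting and feeding, Thrsp, Fasn and Acly, which act in fat synthesis, fell in both ages at 48, and Angptl4 and Fgf21, which rise in fasting, rose in old mice at 48.

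Markers of liver cells and zones also moved. At 48, 21.9% of all genes were called in young and 24.1% in old mice. Of 5 periportal genes, which mark the zone where gluconeogenesis is known to be highest, 4 fell in old mice at 48 (Cyp2f2, Hal, Sds and Gls2). In young mice at 48, 0 were called, while these 4 changed by -1.07 to -0.91 (adjusted p = 0.0928 to 0.144). For the old change minus the young change at 48, 0 of the 5 were called. Directly between the ages at 48, Cyp2f2 was called lower in old mice. The sum of the 5 genes was 225 to 593 CPM in old mice at 48, against 1517 to 1806 CPM before, and in young mice 791 to 955 CPM against 1487 to 1755 CPM. Of 8 tested hepatocyte markers, 2 rose and 4 fell in old mice at 48, with sums of 47190 to 62800 CPM against 48400 to 63670 CPM before. The markers called were Alb, which fell, and Ttr, Fgb, Cps1, Hpx and Serpinc1. Of 6 macrophage markers, 3 fell in old mice at 48 (Adgre1, Csf1r and Vsig4), with sums of 121 to 668 CPM against 600 to 888 CPM before. Of 6 pericentral markers, Cyp2e1 fell in young mice at 48, Glul and Cyp2e1 in young mice at 72, and Cyp2e1 and Cyp1a2 in old mice at 48. The pericentral sums were 6646 to 7278 CPM in young mice before, 4238 to 4566 CPM at 48 and 1477 to 5174 CPM at 72, and in old mice 3918 to 4902 CPM before and 1295 to 4028 CPM at 48. Of 6 endothelial markers, Pecam1 and Kdr fell in young mice at 48, Clec4g and Kdr in young mice at 72, and Kdr in old mice at 48 and 72, while the bile duct markers Krt19 and Spp1 rose in young mice at 72. The endothelial sums were 366 to 412 CPM in young and 321 to 440 CPM in old mice before, and 226 to 307 and 251 to 374 CPM at 48. The bile duct sum in young mice was 41.8 to 50.6 CPM before and 41.2 to 286 CPM at 72. The part of these cell and zone markers in the members' values was not tested.

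The genes most like each member over the 36 libraries, by Pearson r of log2(CPM + 1), are given as a description, since these libraries share time points and depth. For Ppp1r3g they were Zfp36 (0.915), an immediate early gene for an RNA-binding protein, and Prkag3 (0.861), a subunit of the energy-sensing kinase AMPK. For Pck1 they were Tat (0.803), an enzyme that degrades tyrosine, and the amino acid transporter Slc38a2 (0.734), which was also the gene most like G6pc (0.824). The values were 0.875 for Gys2 with Wdtc1, 0.926 for Pygl with the carboxylesterase Ces1f, 0.914 for Pygl with catalase (Cat), and 0.710 for Fbp1 with Mat1a. For the 2 subunit genes that were never called, they were Adgra2 with Ppp1r3b (0.739) and Sdr9c7 with Ppp1r3c (0.788). Between members, the highest were Gys2 with Ppp1r3g (0.779), Gys2 with Pklr (0.769) and G6pc with Ppp1r3g (0.745), while Fbp1 with Pygl was at 0.00182.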

How the data were processed

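Counts per gene symbol, 1 table per library, were deposited by the authors as whole numbers that were not normalized, per the file headers and values. Trimmomatic 0.39, STAR 2.7.5b, featureCounts and the builds GRCm38 and mm10 are named in the submitters' processing notes, while annotation and strand setting are not given in the sources used here. Symbols that read as dates numbered 27 and concern no member. Positions come from GENCODE M21 (GRCm38), promoters from RefSeq (GRCm38.p6), where 7 of 9 members matched. Promoter motifs were chosen after the promoters had been seen, and only bases outside annotated exons are printed.

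The counts went into edgeR 4.0.16 (R 4.3.3) with TMM scaling (factors 0.930 to 1.133), filterByExpr on the 12 groups, 1 quasi-likelihood fit of all 36 libraries with 1 mean per group, and Benjamini-Hochberg adjustment over 13436 genes within each comparison. The robust setting of the prior spread was adopted after calls without it had been seen, following an earlier analysis of these data, and the fit without it is an alternative. The scripts were tested on simulated data. Comparisons were between the ages at every time point and on average, each later time point against before within an age, and age by time (5 contrasts jointly and singly). Alternatives were other scalings and filters, DESeq2 1.42.0, pairwise fits, the replicate number as a block, the Y-linked split and each library left out in turn.

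The members, the pathway and marker lists and the tests were chosen with earlier results of these data known. Named genes are all members, per comparison up to 3 rising and 3 falling called list genes with the largest change and a mean CPM of at least 1, and the 2 genes most like each member. For 3 members only the first is named, the second for Gys2, Fbp1 and Ppp1r3c being Sirt7 (0.866), Polr3g (0.691) and Rab32 (0.767), and that for G6pc was Slc25a25 (0.805). The second for Ppp1r3b and 1 gene of a marker list are not reported here.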

Additional observations from a re-analysis of the deposited data

Results flagged for a closer look

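The age by time test called Pklr, the liver pyruvate kinase gene, with an adjusted p of 0.0374 in edgeR's quasi-likelihood test, which asks for a difference between the ages in the course over time. By group means, old mice held more than young mice at 48 (210 ± 60.5 against 97.6 ± 14.6 CPM, SD, n = 3) and less at 96 (177 ± 75.1 against 306 ± 71.7 CPM) and 120 (159 ± 71.5 against 314 ± 99.5 CPM). In the same test the difference at 48 was called (adjusted p = 0.0337), and those at 96 and 120 were not (0.307 and 0.323). At 96 the libraries of the ages overlapped. The age by time call was kept in 24 of 45 alternative fits.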

How the results depend on the processing

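Of 38 calls of a member in a comparison, that of Pklr in age by time not counted, 21 were kept in every alternative fit run, 17 were lost in at least 1, and 0 changed direction. The age by time call of Pklr was lost in 21 of 45 alternative fits. Old against young at single time points gave 2 calls; the count was 0 without a filter on low counts, 0 without the libraries with Y-linked transcripts, 1 in fits of only the groups compared (Gys2 before, with both calls at 48 lost), and 0 to 3 with single libraries left out. The averaged comparison gave 1 call, and 1 to 2 with single libraries left out. Age by time gave 1 call; the count was 0 with total-count scaling, 0 without a filter, 0 without the libraries with Y-linked transcripts, 2 with DESeq2, and 0 to 2 with single libraries left out. Some of these fits held fewer libraries, and the cause of the differing counts was not tested. Later against before gave 18 calls in young and 17 in old mice, within 1.5 times of that in all alternatives. Total-count scaling moved the median log2 change of all genes by 0.11 at 48, 0.20 at 72 and 0.11 at 96 in young mice and by 0.12 at 72 in old mice, upward each time. Equal replicate numbers did not pair the libraries: their deviations correlated at a mean r of 0.04 in young and 0.08 in old mice (range -0.378 to 0.578). With the number as a replicate block, the counts were 2, 1, 18, 16 and 1 for old against young, its average, young and old against before, and age by time. Ppp1r3g summed to 9 to 95 counts per group at the later time points, which limits the precision of its fold changes.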
